A study of Mus musculus with 12 samples.

Results

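CD8 T cells of Ezh2 wild-type mice were compared 3 days after stimulation with freshly isolated CD8 T cells of the same animals. The comparison rests on 6 of the 12 arrays in the series: 3 of activated and 3 of naive wild-type cells, from mice 1, 2 and 3, chosen by their sample titles. All 20962 genes with a probe set of their own were examined. The mice were C57BL/6 males, 4 weeks old and wild type at Ezh2, the gene for the catalytic subunit of Polycomb repressive complex 2. The activated group was cultured for 3 days in serum-containing medium in wells that carried anti-CD3 and a second antibody. This second antibody is anti-CD28 in the series design and anti-CD38 in the sample characteristics, and which of them was used cannot be told from the sources used here. The naive group consisted of cells taken from spleen and lymph nodes with anti-CD8 magnetic beads, with a stated purity above 93%, and not cultured. The other 6 arrays hold activated and naive cells of mice 4, 5 and 6 of the same strain, sex and age, in which both floxed Ezh2 alleles are deleted by Cre recombinase under the CD4 promoter. Total RNA (about 200 ng) was amplified with the Nugen Ovation Pico system and hybridized to Affymetrix HT mouse perfect-match arrays. The knockout arrays served for a shared estimate of the spread and for 1 comparison of the responses.

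A CD8 T cell that has not met its antigen is small, circulates between blood and lymphoid organs and divides rarely. Engagement of the T-cell receptor together with a costimulatory receptor drives it through a growth phase into fast division, and its daughters acquire cytokine secretion and granule-mediated killing. Growth draws on the interleukin-2 receptor, on the Myc and mTOR pathways and on enlarged protein synthesis, while factors that hold the resting state, such as Klf2, Tcf7 and Foxo1, are turned down.

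Levels below are log2 expression estimates as deposited, and a change is the mean of activated minus the mean of naive cells (n = 3 arrays each) with the standard error (SE) of a limma fit to all 12 arrays. A gene passed where its p-value, adjusted over all 20962 genes by the Benjamini-Hochberg method, was under 0.05, and only such genes are said to have risen or fallen. The array medians lay between 0.906 and 0.976, near the lower end of the scale, so folds may be compressed for genes that are dim in a group. The mice are separate animals, each of which gave an activated and a naive sample, and 3 arrays a state limit the precision. Since no array held cells cultured without stimulation, effects of stimulation, culture and handling cannot be told apart. In such bulk samples fewer cells of a type and less RNA per cell cannot be told apart either.

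T-cell genes were bright in both states. Cd8a, which encodes a chain of the coreceptor, stood at 7.24, 7.30 and 7.21 on the 3 activated arrays and at 7.49, 7.45 and 7.36 on the 3 naive arrays, and its difference of -0.18 ± 0.09 did not pass (adjusted p = 0.171). Cd3e, a chain of the receptor complex, read 6.51, 6.68 and 6.43 in activated cells and 7.20, 7.18 and 7.12 in naive cells. Cd4 read 1.35, 1.36 and 1.28 in activated cells and 1.73, 1.76 and 2.14 in naive cells, not far above the array median, and it fell (-0.545). Of 10 CD4 and regulatory T-cell markers it was the 1 that fell, and 2 rose. Among markers of other cells, the erythroid Alas2, the platelet Pf4 and the stromal Col1a1 read under 1.0 on each of the 6 arrays. Others were bright on the naive arrays: the MHC class II chaperone gene Cd74, known from B cells and other antigen-presenting cells, read 3.16, 3.31 and 3.09 in activated and 6.78, 6.93 and 6.88 in naive cells. These markers are described further on.

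In all, 5612 genes passed, 26.8% of those tested, of which 3109 were higher (14.8%) and 2503 lower (11.9%) after activation. With each array centred on its own median the split was 3504 higher and 1773 lower, which is 66.4% higher against 55.4% as deposited. With quantile normalization it was 2703 higher and 2594 lower (51.0%). The median change over all genes was -0.03 as deposited. Many changes were small: 2490 of the passing genes changed by under 1.5-fold and 1591 by at least 2-fold, 1145 of them higher and 446 lower. A test against a change of 2-fold was passed by 743 genes (3.54%), 547 higher and 196 lower. Changes of 8-fold or more were seen for 60 genes that rose and 30 that fell. The groups did not overlap for 8895 genes (42.4%), 5529 of which passed. Taken mouse by mouse, 5579 of the passing genes (99.4%) had the same direction in all 3 animals, as did 6171 of the 15350 genes that did not pass (40.2%). The genes below are grouped into lists of known function. Across 65 such lists 1291 different genes were measured, of which 633 rose and 253 fell, together 68.6%. The lists were chosen with earlier results of these data known, so this share is no test against that over all genes.

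**Figure D1:**
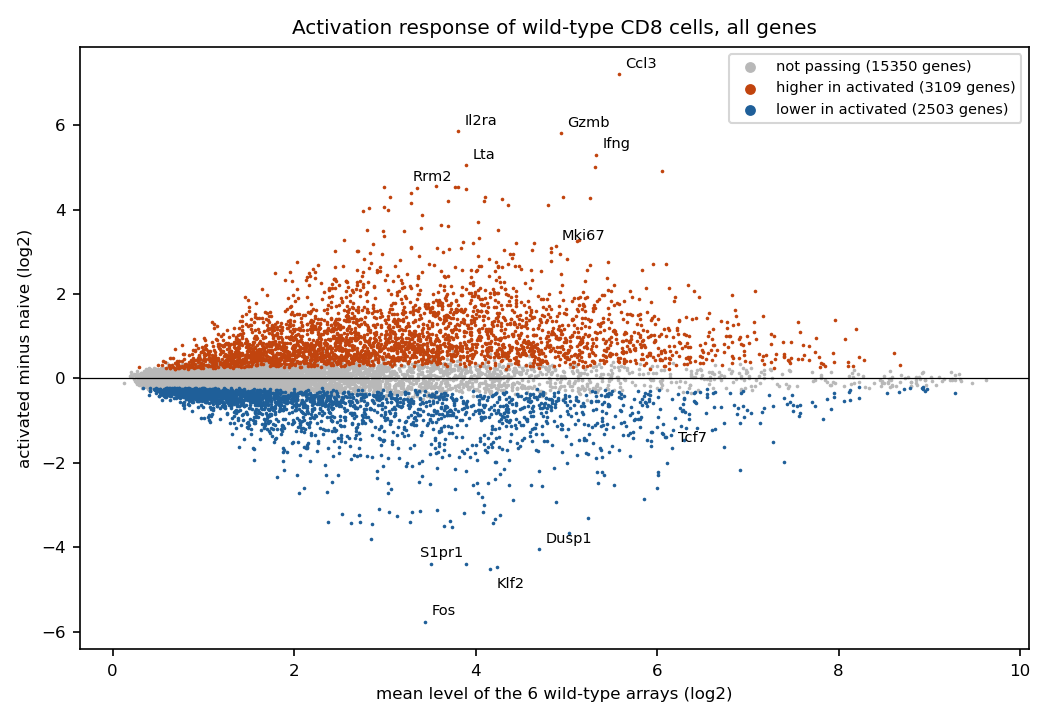
Change upon activation (vertical axis, activated minus naive, log2) against the mean level of the 6 wild-type arrays (horizontal axis, log2) for 20962 genes; each point is 1 gene, coloured by whether it passed and in which direction. The largest rise is that of Ccl3 at 7.21 and the largest fall that of Fos at -5.76.

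Of the 20 genes with the largest rise, 7 encode cytokines or chemokines, and Il2ra, the high-affinity chain of the interleukin-2 receptor, ranks just below Ccl3. Ccl3, a chemokine that attracts other leukocytes, read 9.15, 9.20 and 9.19 in activated cells and 1.84, 1.98 and 2.10 in naive cells, a 148-fold rise (adjusted p = 3.69e-14). Il2ra read 6.62, 6.85 and 6.75 in activated and 0.90, 0.69 and 1.06 in naive cells, which is 58-fold (adjusted p = 1.17e-13). In both genes the arrays of a state agree within 0.5 log2 units and the states lie far apart. Among 16 genes of the IL-2 receptor and signalling chain 9 rose and 3 fell. Besides Il2ra, those that rose included Cish (3.70 ± 0.12) and Socs2 (1.98 ± 0.16), feedback inhibitors of cytokine signalling, Il2 itself (3.63 ± 0.14) and the transcription factor gene Stat5a (2.05 ± 0.16). The beta chain Il2rb rose by 0.45 ± 0.08, a call that quantile normalization ended, and the common gamma chain Il2rg stood at 7.26, 7.31 and 7.26 in activated cells and 7.18, 7.33 and 7.28 in naive cells (0.01 ± 0.09, not passing). Il7r, the receptor chain for the survival cytokine interleukin-7, fell (-2.47 ± 0.11), as did Jak1 (-1.46 ± 0.10) and Socs3 (-1.49 ± 0.20). Among 23 receptors and signal transducers of other cytokines 4 rose and 7 fell. Il12rb2, the inducible interleukin-12 receptor chain, rose by 3.38 ± 0.19, while Il6ra (-3.14 ± 0.17), Il6st (-2.15 ± 0.12), Tgfbr2 (-1.71 ± 0.15) and Ifngr2 (-1.35 ± 0.12) fell.

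Cytokine genes were divided between a set that rose strongly and a set near the lower end of the scale. Of 23 cytokines 10 rose and 3 fell. Ifng, the macrophage-activating interferon, read 7.98, 7.95 and 8.02 in activated cells and 2.72, 2.75 and 2.57 in naive cells (5.30 ± 0.27). Lta, the lymphotoxin gene, stood at 6.49, 6.31 and 6.48 in activated cells, against 1.27, 1.55 and 1.29 in naive cells (5.06 ± 0.11), and Il3 at 5.28, 5.27 and 5.23, against 0.64, 0.88 and 0.62 in naive cells (4.55 ± 0.10). The states did not overlap for any of these genes. Csf2 (3.50 ± 0.13) and Tnf (1.70 ± 0.15) rose as well, and Ltb (-0.73 ± 0.12), Il16 (-0.97 ± 0.17) and Csf1 (-0.51 ± 0.12) fell, Csf1 on 1 of its 4 probe sets while another rose. Cytokines of other helper lineages did not pass: Il4 changed by 0.10 ± 0.08, Il17a by 0.12 ± 0.09, Il21 by 0.10 ± 0.11 and Il10 by 0.07 ± 0.10. Of 13 chemokines 6 rose and 2 fell. Without the probe sets that carry a strand or cross-hybridization note of the authors, 1 of 5 rose and 1 fell. Among the 6 rises were Ccl4 (5.02 ± 0.21), Xcl1 (4.92 ± 0.15), Ccl9 (4.56 ± 0.11) and Ccl1 (3.19 ± 0.12). Ccl5, a chemokine of memory and effector CD8 cells, went the other way, with 4.90, 4.92 and 4.90 in activated cells and 7.03, 7.11 and 7.20 in naive cells (-2.21 ± 0.10).

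Some of the largest changes lay outside the lists. Mt1 and Mt2 encode metallothioneins, which bind zinc. Mt1 read 5.25, 5.13 and 5.25 in activated and 0.91, 0.82 and 0.98 in naive cells (4.31 ± 0.12), and Mt2 rose by 4.20 ± 0.14. Ybx3, which encodes a nucleic acid-binding protein, read 7.14, 7.19 and 7.02 in activated and 2.37, 3.55 and 2.55 in naive cells (4.29 ± 0.22), and its naive arrays spread by more than 1 log2 unit without reaching the activated ones. Among the falls were Zeb1, a transcriptional repressor (-3.38 ± 0.17), Frat2, a regulator of Wnt signalling (-3.32 ± 0.11), and the kinase gene Sgk1 (-3.27 ± 0.12).

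Genes of the killing machinery did not move as a block: 7 of 21 cytotoxic granule genes rose and 4 fell. Gzmb, the granzyme that triggers apoptosis in target cells, read 7.81, 7.91 and 7.82 in activated and 1.90, 1.96 and 2.25 in naive cells, 56.2-fold higher. Gzma, another granzyme, read 0.62, 0.79 and 0.62 in activated and 4.08, 4.35 and 3.78 in naive cells, 10.5-fold lower. The pore-forming protein gene Prf1 read 1.55, 1.82 and 1.63 in activated and 1.20, 1.96 and 1.55 in naive cells, and these overlap (0.10 ± 0.18, adjusted p = 0.755). The protease inhibitors Serpinb9 (3.11 ± 0.11) and Serpinb6b (3.10 ± 0.16), of which Serpinb9 protects killer cells from granzyme B, rose, as did Gzmc (1.18 ± 0.18) and the death ligand Fasl (0.49 ± 0.11). Ctsw, a protease gene of killer cells, fell (-1.13 ± 0.09), and without activated array 1 the list held 2 falls in place of 4. Without the probe sets that carry a strand or cross-hybridization note, 2 of 11 granule genes rose and 3 fell. Among 16 killer-cell receptors and adaptors 3 rose, led by Klrc1 (1.74 ± 0.17) and Klrk1 (0.83 ± 0.12), and 5 fell. The adaptor gene Tyrobp, which signals for activating receptors, read 1.01, 1.01 and 1.07 in activated cells and 4.50, 4.42 and 4.35 in naive cells, and Hcst, the adaptor of Klrk1, fell as well (-2.01 ± 0.15). Of 12 measured markers of natural killer cells, described further on, 7 belong to these same lists, Gzma and Tyrobp among them. The other 5 are Eomes, Ncam1, Kit, Cma1 and Fcer1g. Their summed level was 7.276 to 7.878 on the activated and 7.015 to 7.720 on the naive arrays. Of these, Eomes, named further on among factors of the effector state, was higher and Fcer1g was lower. A rise and a fall can offset each other in such a sum, so it does not show whether natural killer cells became fewer. The part of natural killer cells in the falls of the killing lists was not tested.

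**Figure D2:**
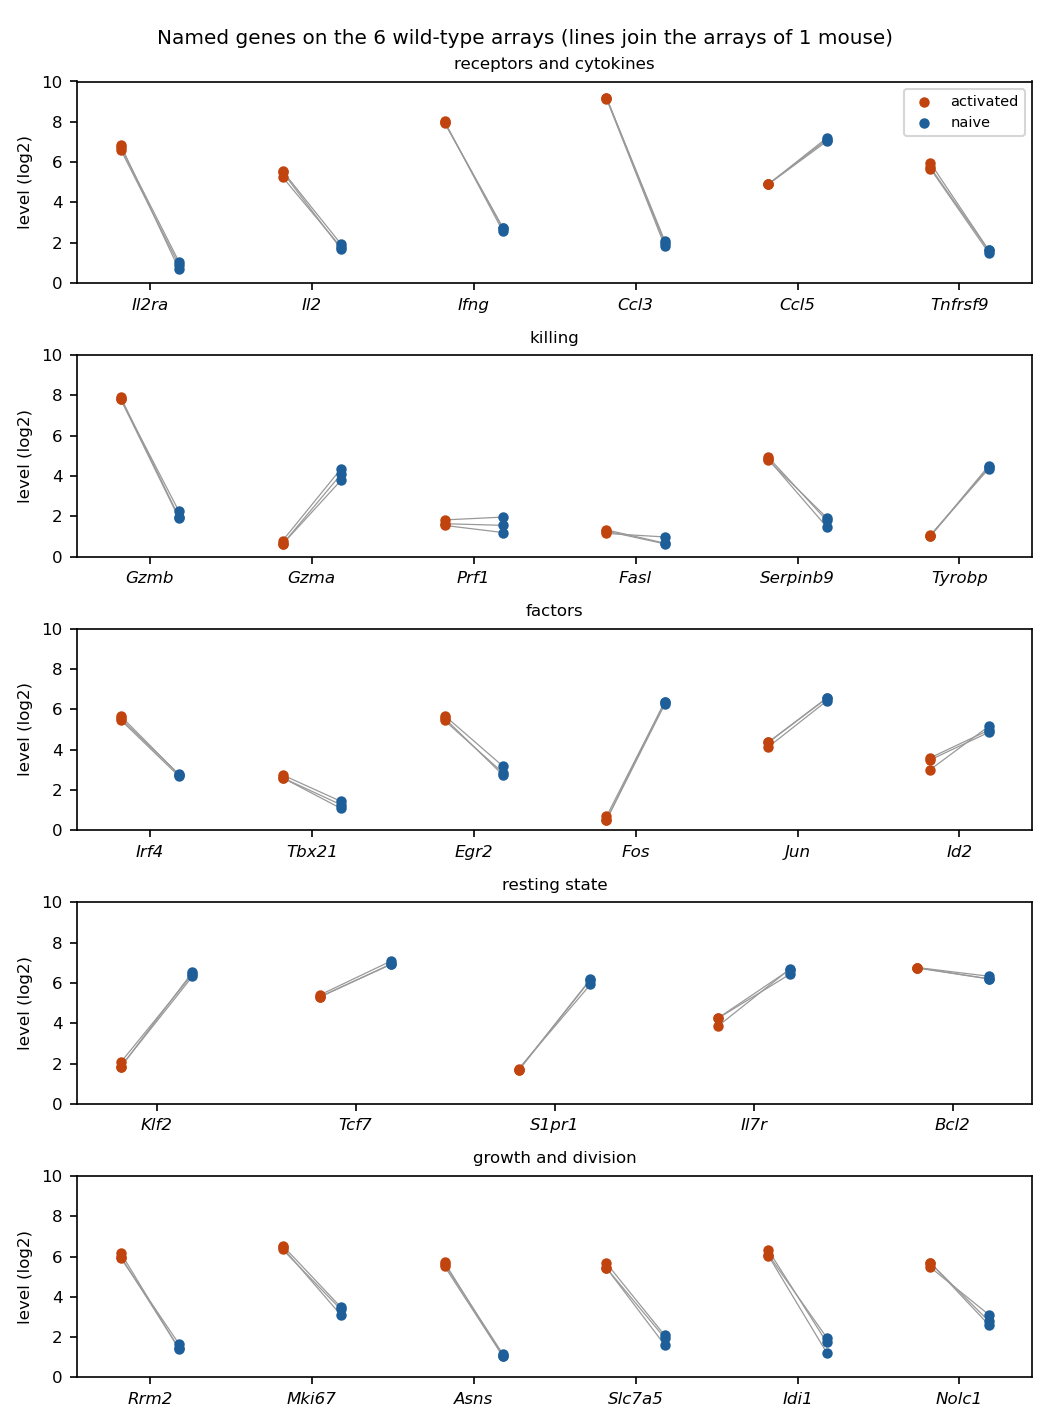
Level (vertical axis, log2) of 29 named genes on the 3 activated (left points) and 3 naive (right points) wild-type arrays, with a line joining the arrays of 1 mouse. Il2ra, Il2, Ifng, Ccl3, Gzmb and the growth genes lie higher in activated cells, Fos, Klf2, S1pr1, Gzma and Tyrobp lower, and Prf1 overlaps between the states.

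Costimulatory genes rose more often than they fell. Among 21 costimulatory receptors and TNF superfamily genes 12 rose and 4 fell. Tnfrsf9 (4-1BB) read 5.68, 5.96 and 5.74 in activated and 1.51, 1.64 and 1.63 in naive cells. Tnfrsf4 (OX40), a costimulatory receptor that is not in this list, rose by 3.50 ± 0.15. Tnfsf11, which encodes the ligand RANKL, rose by 3.96 ± 0.11, Tnfrsf18 (GITR) by 1.81 ± 0.12 and Icos by 0.93 ± 0.12, and Slamf6 fell (-1.36 ± 0.14). Inhibitory receptors were mixed, with 3 of 14 higher and 6 lower. Cd200 (3.01 ± 0.18) rose. Pdcd1 (PD-1) read 2.50, 2.58 and 2.60 in activated and 1.00, 1.36 and 1.42 in naive cells and rose as well, without overlap. Cd96 (-1.62 ± 0.16) and Vsir (-1.48 ± 0.16) fell, and Ctla4 (-0.21 ± 0.12), Lag3 (0.21 ± 0.11) and Havcr2 (0.18 ± 0.10) did not pass.

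Most genes of the receptor that receives the signal were lower at the RNA level, by modest amounts. Among 14 receptor complex and coreceptor genes 10 fell and 2 rose, with a median change of -0.61, and 0 passed the test against a change of 2-fold. Cd8b1 read 5.45, 5.37 and 5.41 in activated and 6.73, 6.72 and 6.65 in naive cells (-1.29 ± 0.10), and Cd3g (-1.12 ± 0.11), Cd28 (-1.04 ± 0.10) and Cd247, the zeta chain (-0.92 ± 0.10), fell as well. The 2 rises were those of Cd5 (0.55 ± 0.11) and Cd6 (0.60 ± 0.09), both of which restrain receptor signalling, and neither passed under quantile normalization. Among 26 genes of proximal signalling 14 fell and 2 rose. Among the falls were those of the kinase genes Txk (-1.64 ± 0.09) and Prkcq (-1.46 ± 0.12) and the adaptor Grap2 (-1.58 ± 0.12). The adaptor gene Lcp2 rose (1.06 ± 0.11), and the kinase gene Zap70 did not pass (0.04 ± 0.09).

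NF-kappaB genes went both ways. Of 17 subunits and regulators 6 rose and 5 fell. Without the probe sets that carry a strand or cross-hybridization note of the authors, 1 of 11 rose and 6 fell. The subunit genes Nfkb1 (1.87 ± 0.11) and Rel (1.06 ± 0.13) rose. Tnfaip3 (A20), a deubiquitinating enzyme that shuts the pathway off, read 4.58, 4.25 and 4.44 in activated and 7.30, 7.26 and 7.30 in naive cells (-2.87 ± 0.09), and Nfkbiz fell too (-1.56 ± 0.15). Rela (0.24 ± 0.10) did not pass. In a list of 17 genes named for calcium entry, calcineurin and NFAT 3 rose and 7 fell, or 4 without naive array 2. The list also holds the costimulatory receptor gene Tnfrsf4, which is 1 of the 3 rises. Stim2 (1.07 ± 0.15) was another, and Orai2 (-1.24 ± 0.13) and Nfatc3 (-0.73 ± 0.13) were among the falls.

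Transcription factors of the effector state and immediate early genes went both ways. In the list of AP-1, BATF and IRF factors of effector cells 9 of 21 rose and 6 fell, with a median of 0.31, and without the probe sets that carry a note of the authors 3 of 12 rose and 4 fell. Irf4, a factor induced by receptor signals and needed for effector expansion, read 5.67, 5.47 and 5.55 in activated and 2.76, 2.68 and 2.77 in naive cells (2.83 ± 0.16), on a probe set that carries a strand note, described further on. Irf8 (2.54 ± 0.15), Bhlhe40 (1.95 ± 0.14), Tbx21 (T-bet, 1.39 ± 0.09) and Eomes (0.75 ± 0.18) rose, and Id2, an inhibitor of E proteins, fell (-1.62 ± 0.15). Batf did not pass (-0.08 ± 0.11), nor did Prdm1 (0.04 ± 0.09). Myc rose by 1.41 ± 0.08, and Mxd4, an antagonist that competes for the Myc partner Max, fell (-1.49 ± 0.16). Of 12 genes of the Myc and Max network 5 rose and 2 fell, and relatives of Mxd4 were among the rises as well as the falls. Under quantile normalization 2 rose, without marked probe sets 2 of 9 rose, and with the mouse as a block 1 fell. Every one of the 22 immediate early genes passed, 9 higher and 13 lower. Egr2 (2.64 ± 0.13), Egr3 (2.35 ± 0.14) and the nuclear receptor genes Nr4a3 (1.61 ± 0.12) and Nr4a1 (1.18 ± 0.16) rose. Fos read 0.68, 0.51 and 0.51 in activated and 6.36, 6.38 and 6.25 in naive cells, 54.3-fold lower. Fosb (-2.60 ± 0.14), Jun (-2.22 ± 0.10), Ppp1r15a (-3.12 ± 0.14) and the RNA-decay factors Zfp36 (-2.30 ± 0.11) and Zfp36l2 (-2.53 ± 0.13) fell with it, and so did the phosphatase gene Dusp1 (-4.04 ± 0.11). Several of these genes are also known to respond to tissue dissociation and sorting, and as the naive cells were not cultured, stimulation and handling cannot be told apart here.

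Genes of the resting state fell. Of 27 naive-state factors and quiescence genes 22 fell and 2 rose, with a median change of -1.40, and the medians within mice 1, 2 and 3 were -1.41, -1.49 and -1.25. Klf2, which keeps T cells quiescent and lets them leave lymphoid organs, read 1.82, 1.84 and 2.06 in activated and 6.52, 6.32 and 6.42 in naive cells, 22.9-fold lower (adjusted p = 2.02e-13). Tcf7 read 5.40, 5.29 and 5.31 in activated and 7.10, 6.95 and 6.93 in naive cells (-1.66 ± 0.10). Foxo1 (-1.58 ± 0.10), Lef1 (-1.60 ± 0.15), Klf3 (-2.88 ± 0.16), Tsc22d3 (-3.40 ± 0.16), the growth factor-binding protein gene Igfbp4 (-3.30 ± 0.24) and the cyclin-dependent kinase inhibitor Cdkn1b (-1.47 ± 0.10) were lower. Bcl2, a survival gene, was 1 of the 2 exceptions (0.51 ± 0.08, not passing under quantile normalization), and the other, Slfn2 (0.46 ± 0.14), passed in 1 of the 6 fits that left out a wild-type array, the one without activated array 2.

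Receptors for egress and homing fell more often than they rose. Of 22 chemokine and homing receptors 12 fell and 2 rose. S1pr1, which guides T cells out of lymph nodes, read 1.67, 1.69 and 1.75 in activated and 6.15, 6.18 and 5.92 in naive cells (-4.38 ± 0.21), and the states did not overlap. Gpr183 (-3.17 ± 0.17), Cxcr4 (-2.56 ± 0.12) and the integrin gene Itgae (-2.48 ± 0.22) fell too, whereas Ccr7, a lymph node homing receptor, changed by -0.18 ± 0.09 (adjusted p = 0.175). Cd44, an adhesion receptor of antigen-experienced cells, rose (2.55 ± 0.15). All 8 Gimap GTPases, a family of lymphocyte survival genes clustered on 1 chromosome, had lower means in activated cells, and 7 of them passed, from Gimap6 (-1.83 ± 0.10) to Gimap5 (-0.60 ± 0.13). Gimap1 did not pass (-0.34 ± 0.14), though with the mouse as a block its fall passed.

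Genes of cell division rose. Of 42 DNA replication genes 38 rose and none fell, of 40 genes of mitosis, kinetochore and cytokinesis 37 rose and none fell, and of 27 nucleotide synthesis genes 22 rose and 2 fell. By limma 4 of the replication genes and 3 of the mitosis genes did not pass in either direction, against 15350 of the 20962 genes tested. At an unadjusted p under 0.05 the number of all genes was 7475. Rrm2, the regulated subunit of ribonucleotide reductase, read 6.19, 5.93 and 6.00 in activated and 1.41, 1.66 and 1.44 in naive cells, 23.2-fold higher. Mki67, a marker of cycling cells, read 6.54, 6.35 and 6.45 in activated and 3.48, 3.37 and 3.09 in naive cells (3.13 ± 0.15). The helicase subunit Mcm5 (2.96 ± 0.14), the DNA ligase Lig1 (2.64 ± 0.14), the licensing factor Cdc6 (2.60 ± 0.13) and Uhrf1, which recruits maintenance methylation to new DNA (2.57 ± 0.15), led the replication genes. The ubiquitin-conjugating enzyme Ube2c (4.11 ± 0.19), the motor Kif11 (2.83 ± 0.17) and survivin (Birc5, 2.73 ± 0.09) were among those of mitosis. Among 29 cyclins, CDKs and E2F factors 19 rose, such as Ccna2 (3.09 ± 0.16), Cdk6 (2.85 ± 0.14), Cdk1 (2.61 ± 0.14) and Tfdp1, the partner of E2F proteins (2.96 ± 0.18). E2f1 itself did not pass (0.25 ± 0.16). The D cyclins went different ways, with Ccnd2 higher (0.49 ± 0.11, not passing under quantile normalization) and Ccnd1 lower (-0.85 ± 0.14).

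Brakes of the cycle moved alongside. Cdkn1a (p21), an inhibitor of cyclin-dependent kinases, read 6.02, 6.04 and 6.17 in activated and 1.74, 1.20 and 1.65 in naive cells, 23.4-fold higher. Of 20 cell-cycle inhibitors and p53 targets 9 rose, among them Ccng1 (2.47 ± 0.18), Phlda3 (1.26 ± 0.14) and Ei24 (1.02 ± 0.16), and 4 fell, among them Sesn1 (-1.22 ± 0.10). Without the probe sets that carry a strand or cross-hybridization note, 2 of 10 rose and 4 fell. In the homologous recombination and repair list 11 of 21 rose and none fell, with Chek1 (2.32 ± 0.20) and Rad18 (1.35 ± 0.19) among the risen. The other 10 genes of that list did not pass by limma.

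Promoters of 3 replication genes are printed because each holds a match to an E2F site, the element through which E2F factors act on S-phase genes. The search used TTTCCCGC, TTTGGCGC and TTCCCGCC on both strands of the 250 bases before each start in the RefSeq promoter table (GRCm38.p6), and a match to the first of these forms can overlap a match to the last by all but 1 base. Capitals mark the match, each sequence runs 5′ to 3′ on the gene's own strand, and the stretches lie at chr8:75109320-75109407 (Mcm5, plus strand), chr11:98907973-98908060 (Cdc6, plus strand) and chr17:56303249-56303336 (Uhrf1, plus strand).
Mcm5: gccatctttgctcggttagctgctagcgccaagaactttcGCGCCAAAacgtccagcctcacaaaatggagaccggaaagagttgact
Cdc6: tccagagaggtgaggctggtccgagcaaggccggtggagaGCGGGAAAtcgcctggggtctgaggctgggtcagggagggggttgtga
Uhrf1: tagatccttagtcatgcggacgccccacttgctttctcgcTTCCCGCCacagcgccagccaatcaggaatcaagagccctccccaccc
The match lay 142 bases before the start in Mcm5, 131 in Cdc6 and 41 in Uhrf1. Among the 43 promoters of the DNA replication list 8 (18.6%) held an E2F form, against 4.01% of the 18129 promoters of all genes tested that had an entry. Over all genes that rose the share was 6.27%, over those that fell 2.98% and over those that did not pass 3.66%. The CHR element TTTGAA was present in 13 of 39 promoters (33.3%) of the mitosis, kinetochore and cytokinesis list and in 11.9% of all promoters, and CCAAT in 30 of the 39 (76.9%) and in 34.7% of all.

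The protein-making machinery rose in its assembly and charging steps, while most cytosolic ribosomal protein genes did not pass. All 37 measured genes of ribosome biogenesis rose (median 1.24), as did all 20 aminoacyl-tRNA synthetases (median 1.71) and all 30 genes of the mitochondrial ribosome (median 1.34). Read without the probe sets that carry a strand or cross-hybridization note of the authors, 14 of 19, 10 of 12 and 9 of 17 of these genes rose and none fell. Of 38 cytosolic ribosomal protein genes 2 rose and 4 fell, with a median of -0.07. The falls numbered 8 with an intensity trend and robust variances, 9 with ordinary variances and 0 among the 11 genes without marked probe sets, and the rises 5 with the probe set of largest variance. Nolc1, a nucleolar assembly factor, read 5.69, 5.46 and 5.69 in activated and 2.80, 3.12 and 2.62 in naive cells, and Utp4 (2.29 ± 0.15) and Mybbp1a (1.98 ± 0.10) rose with it. Glycyl-tRNA synthetase (Gars) rose by 2.72 ± 0.16, isoleucyl-tRNA synthetase (Iars) by 2.58 ± 0.13 and threonyl-tRNA synthetase (Tars) by 2.37 ± 0.16. The mitochondrial ribosome gene Mrpl12 rose by 2.11 ± 0.15 and Mrpl20 by 2.20 ± 0.17. The exceptions among cytosolic ribosomal proteins were the stress-inducible Rps27l (2.68 ± 0.18), a paralog of Rps27, and Rps2 (0.30 ± 0.10), which failed to pass without any 1 of the 6 arrays. Levels of the cytosolic ribosomal protein genes were near the top of the scale, where array maxima lay at 9.555 to 9.756, so a rise may be compressed there. Their summed level was 303.2 to 304.3 on the activated and 304.7 to 305.7 on the naive arrays. Of 26 translation factors 18 rose and 2 fell, with Eif4ebp1, the mTOR-controlled inhibitor of cap binding, up by 4.15 ± 0.14 and the cap-binding protein Eif4e itself by 2.14 ± 0.12.

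**Figure D3:**
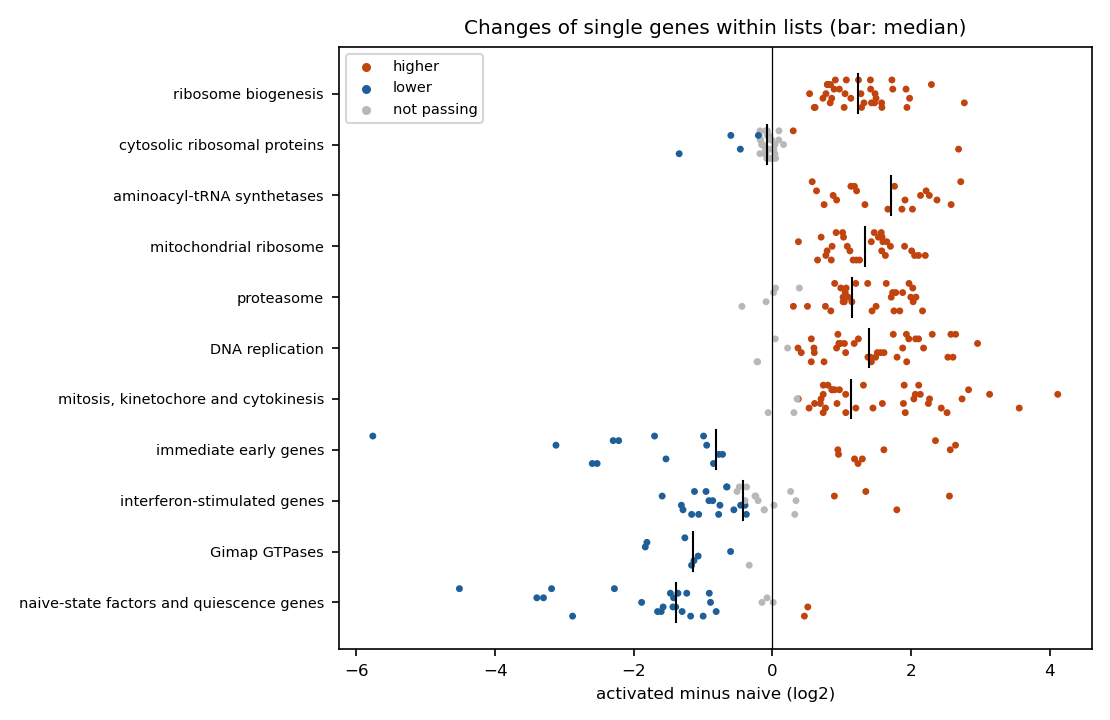
Change upon activation (horizontal axis, activated minus naive, log2) of each measured member of 11 lists, with the list's median as a bar and the call of each gene as its colour. The 37 ribosome biogenesis genes, 20 tRNA synthetases and 30 mitochondrial ribosome genes all lie above 0, the cytosolic ribosomal proteins cluster at 0, and most naive-state genes lie below it.

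Genes of protein turnover and nuclear transport rose too. Of 35 proteasome genes 30 rose and none fell. Core subunits such as Psma1 (2.16 ± 0.18) and Psmb5 (2.02 ± 0.12) were higher. By limma 5 members did not pass: Psmd13 (0.39 ± 0.16), the immunoproteasome subunits Psmb9 (-0.09 ± 0.11) and Psmb10 (-0.44 ± 0.16) and the interferon-inducible activators Psme1 (0.02 ± 0.08) and Psme2 (0.04 ± 0.10). Psmb8, another immunoproteasome subunit, rose by 0.30 ± 0.08, a call that was lost without activated array 1 or naive array 3 and turned to a fall short of the threshold under quantile normalization. Of 23 chaperones 21 rose, among them the mitochondrial Hspa9 (2.22 ± 0.11) and Hspd1 (2.08 ± 0.13) and the chaperonin subunit Cct3 (1.54 ± 0.13), and 1, the heat-shock gene Dnajb1, fell (-1.34 ± 0.11). Nuclear pore and import genes rose in 21 of 24 and RNA splicing and export factors in 22 of 29. Kpna2, an import receptor, rose by 3.06 ± 0.16, Ipo5 by 2.67 ± 0.11 and the splicing protein gene Lsm2 by 2.65 ± 0.20, while Srsf5 fell (-1.33 ± 0.18).

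Metabolic genes rose along glycolysis, the mitochondrion and sterol synthesis. In glycolysis and lactate transport 13 of 19 rose and none fell, in the tricarboxylic acid cycle 17 of 24 and none, and in the respiratory chain and ATP synthase 28 of 34 and none. The counts of genes that did not pass by limma were 6, 7 and 6. Without marked probe sets 8 of 17 tricarboxylic acid cycle genes and 4 of 14 respiratory chain genes rose, against 8 of 12 of glycolysis. The tricarboxylic acid cycle list held 3 falls with the probe set of largest variance and 1 under quantile normalization, with the median of the probe sets or without marked probe sets. Pgam1 read 6.86, 6.87 and 6.79 in activated and 4.03, 4.42 and 3.80 in naive cells (2.76 ± 0.13), and Pgk1 (2.16 ± 0.10), hexokinase 2 (Hk2, 1.77 ± 0.16), lactate dehydrogenase A (Ldha, 1.61 ± 0.08) and the lactate carrier Slc16a1 (1.88 ± 0.18) rose. Tpi1 rose by 4.30 ± 0.11, on a probe set with the strand note. Cytochrome c (Cycs, 1.92 ± 0.12) and Ndufb6 (2.11 ± 0.20) were among the largest mitochondrial rises. In the pentose phosphate pathway 5 of 7 rose, such as Pgd (2.12 ± 0.14) and the first enzyme G6pdx (1.63 ± 0.14).

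Genes of cholesterol synthesis rose. Of 24 cholesterol synthesis genes 16 rose and none fell. Idi1, which makes an isoprenoid building block, read 6.31, 6.09 and 6.04 in activated and 1.74, 1.98 and 1.23 in naive cells, 22.5-fold higher. Cyp51 (2.66 ± 0.15), Hmgcs1 (1.71 ± 0.08) and Sqle (1.61 ± 0.13) rose as well. Of 8 genes of cholesterol efflux and the oxysterol response 4 fell, led by the sterol exporter Abcg1 (-1.75 ± 0.14), and none rose. The falls numbered 2 without activated array 1, activated array 2 or naive array 3, with centred arrays or with ordinary variances. With centred arrays, quantile normalization or either other choice of probe set 1 gene rose. Among 13 fatty acid synthesis genes 6 rose, such as Fasn (1.72 ± 0.10) and Elovl1 (1.97 ± 0.16), and 2 fell. The transferrin receptor Tfrc, which brings iron into dividing cells, read 6.86, 6.67 and 6.78 in activated and 3.62, 3.50 and 3.38 in naive cells, and thioredoxin (Txn1) rose by 2.08 ± 0.10. Srm, the spermidine synthase of the polyamine pathway, rose by 3.23 ± 0.12 and Odc1, which makes the first polyamine, by 0.63 ± 0.08.

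Amino acid supply rose with the transfer RNA synthetases. In this list, which joins amino acid carriers with serine and folate enzymes, 22 of 26 rose and none fell, with a median of 1.58. Asparagine synthetase (Asns) read 5.70, 5.52 and 5.62 in activated and 1.06, 1.05 and 1.16 in naive cells, 23-fold higher. Slc7a5, the carrier of large neutral amino acids, read 5.67, 5.43 and 5.43 in activated and 2.09, 1.96 and 1.61 in naive cells (3.62 ± 0.11), and the mitochondrial folate enzyme gene Shmt2 (3.53 ± 0.10) rose. By limma 4 members did not pass, among them the cystine carrier Slc7a11 (0.08 ± 0.08). In the ATF4 and unfolded protein response list 16 of 24 rose and 2 fell. Ddit4 (3.00 ± 0.31), Xbp1 (1.69 ± 0.17), Trib3 (1.60 ± 0.11) and Chac1 (1.25 ± 0.14) rose, the endoplasmic reticulum chaperone partner Dnajb9 fell (-3.42 ± 0.14), and Ddit3 (CHOP) did not pass (0.23 ± 0.09).

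Asns and Chac1, both known targets of ATF4, are shown because their promoters hold a match to the C/EBP-ATF response element, searched as TGATGNAA on both strands. Capitals mark the match in RefSeq sequence of GRCm38.p6, printed 5′ to 3′ on the gene's strand, at chr6:7693210-7693272 (Asns, minus strand) and chr2:119351009-119351096 (Chac1, plus strand).
Asns: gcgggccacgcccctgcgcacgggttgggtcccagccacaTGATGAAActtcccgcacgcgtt
Chac1: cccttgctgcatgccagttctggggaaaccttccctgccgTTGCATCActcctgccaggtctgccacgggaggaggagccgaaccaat
The match lay 16 bases before the start in Asns and 186 in Chac1. It was found in 4 of 23 promoters (17.4%) of the amino acid transport and one-carbon metabolism list and in 4 of 23 of the ATF4 and unfolded protein response list, against 2.33% of all promoters. Among the promoters of all genes that rose the share was 1.77%.

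Interferon-stimulated genes fell more often than they rose. Of 34 measured members 17 fell and 4 rose, with a median change of -0.43. The falls included Xaf1 (-1.59 ± 0.20), Trim30a (-1.31 ± 0.14), the RNA sensor gene Ddx58 (-1.29 ± 0.18), Ifit1 (-1.12 ± 0.26), Ifit3 (-1.06 ± 0.24) and Oas1a (-0.56 ± 0.15). All 4 rises were of GTPase genes known to be induced by interferon gamma: Gbp2 (2.55 ± 0.19), Igtp (1.79 ± 0.12), Irgm2 (1.35 ± 0.14) and Irgm1 (0.89 ± 0.09). Gbp2 read 5.47, 5.11 and 5.27 in activated and 2.87, 2.95 and 2.38 in naive cells. Ifit3 read 2.11, 2.16 and 2.47 in activated and 3.39, 3.21 and 3.34 in naive cells, so both genes kept their states apart. Of 10 genes of MHC class I and antigen processing 4 fell, among them H2-K1 (-0.54 ± 0.08), and Tap1 rose (0.55 ± 0.13, not passing under quantile normalization). B2m did not pass (-0.03 ± 0.07).

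Promoters of 1 risen and 2 fallen interferon-stimulated genes are set side by side because all hold the interferon-stimulated response element, searched on both strands as GAAA, 2 bases of any kind and GAAA. They come from the RefSeq table of GRCm38.p6, 5′ to 3′ on the gene's strand with the match in capitals, at chr3:142620564-142620653 (Gbp2, plus strand), chr5:120907526-120907585 (Oas1a, minus strand) and chr19:34583333-34583456 (Ifit3, plus strand).
Gbp2: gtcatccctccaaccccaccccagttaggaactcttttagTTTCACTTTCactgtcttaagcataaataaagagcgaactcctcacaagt
Oas1a: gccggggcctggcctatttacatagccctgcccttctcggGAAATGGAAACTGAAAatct
Ifit3: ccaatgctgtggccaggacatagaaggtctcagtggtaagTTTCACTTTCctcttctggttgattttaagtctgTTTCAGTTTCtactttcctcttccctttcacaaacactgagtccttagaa
The element was present once in Gbp2, in 2 overlapping copies in Oas1a and in 2 separate copies in Ifit3. It was found in 14 of 32 promoters (43.8%) of the interferon-stimulated genes and in 2.63% of all promoters. The share was 2.72% among genes that rose and 3.60% among genes that fell.

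Death and survival genes moved without a common direction. In the BCL2 family 5 of 15 rose and 5 fell, with the pro-apoptotic Bax (1.65 ± 0.22) and the protective Bcl2l1 (1.38 ± 0.14) both higher and Mcl1 lower (-0.49 ± 0.09). Among 18 death receptor and caspase genes 6 rose and 2 fell, a count that was 1 without activated array 1, activated array 2, naive array 2 or naive array 3, or with the mouse as a block. The S100, annexin and galectin genes rose in 7 and fell in 5 of 18. Lgals3 (3.34 ± 0.11) and Anxa2 (2.27 ± 0.13) rose most, and Anxa6 (-0.98 ± 0.10) fell. Lysosome and autophagy genes fell in 11 and rose in 5 of 25, with Ctss (-1.33 ± 0.15) the largest fall and Gabarapl1 (1.62 ± 0.15) the largest rise.

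Ezh2 read 5.56, 5.26 and 5.35 in activated and 2.31, 2.16 and 2.42 in naive cells, 8.52-fold higher (adjusted p = 1.15e-08), while its paralog Ezh1 did not pass (-0.05 ± 0.11). Of 11 PRC2 genes and partners 7 rose and 2 fell. Without the probe sets that carry a strand or cross-hybridization note, 2 of 8 rose and 2 fell. Suz12 rose by 0.73 ± 0.08, Eed, the subunit that binds the methyl mark, by 1.28 ± 0.18 on 1 of its 2 probe sets and the accessory Aebp2 by 1.38 ± 0.10. The accessory subunits Phf1 (-0.93 ± 0.11) and Jarid2 (-0.80 ± 0.17) fell. Among PRC1 genes 6 of 18 rose, led by Bmi1 (1.18 ± 0.20), and 2 fell. Of these, Cbx7 (-0.42 ± 0.15) lost its call without activated array 1, activated array 3, naive array 1 or naive array 2. Without marked probe sets 2 of 13 PRC1 genes rose and 1 fell. Of 26 demethylases, deacetylases and DNA-modifying enzymes 10 rose and 4 fell, among them Dnmt3a (1.44 ± 0.15) and Hdac1 (1.01 ± 0.08) higher and Kdm7a lower (-1.41 ± 0.15).

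The host transcript of the miR-17 to miR-92a cluster rose. Mir17hg read 2.80, 1.88 and 2.33 in activated and 1.61, 1.26 and 1.32 in naive cells (0.94 ± 0.20, adjusted p = 0.00164), and the states did not overlap. The array measured the host transcript and none of the mature microRNAs it is cut into. These are printed because the cluster is known for its roles in lymphocyte growth, 5′ to 3′ from RefSeq (GRCm38.p6, chromosome 14, plus strand), with the seed (bases 2 to 8), by which a microRNA recognises its targets, in capitals. Positions are chr14:115043684-115043706 for miR-17, chr14:115044183-115044205 for miR-20a, chr14:115043867-115043889 for miR-18a, chr14:115044048-115044070 for miR-19a, chr14:115044358-115044380 for miR-19b and chr14:115044476-115044496 for miR-92a.
mmu-miR-17-5p: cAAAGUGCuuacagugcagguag
mmu-miR-20a-5p: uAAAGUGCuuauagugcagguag
mmu-miR-18a-5p: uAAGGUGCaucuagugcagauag
mmu-miR-19a-3p: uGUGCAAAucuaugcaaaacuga
mmu-miR-19b-3p: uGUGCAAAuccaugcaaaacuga
mmu-miR-92a-3p: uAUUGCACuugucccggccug
The miR-17 and miR-20a sequences share 1 seed, the miR-19a and miR-19b sequences share another, and those of miR-18a and miR-92a have a seed each of their own.

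**Figure D4:**
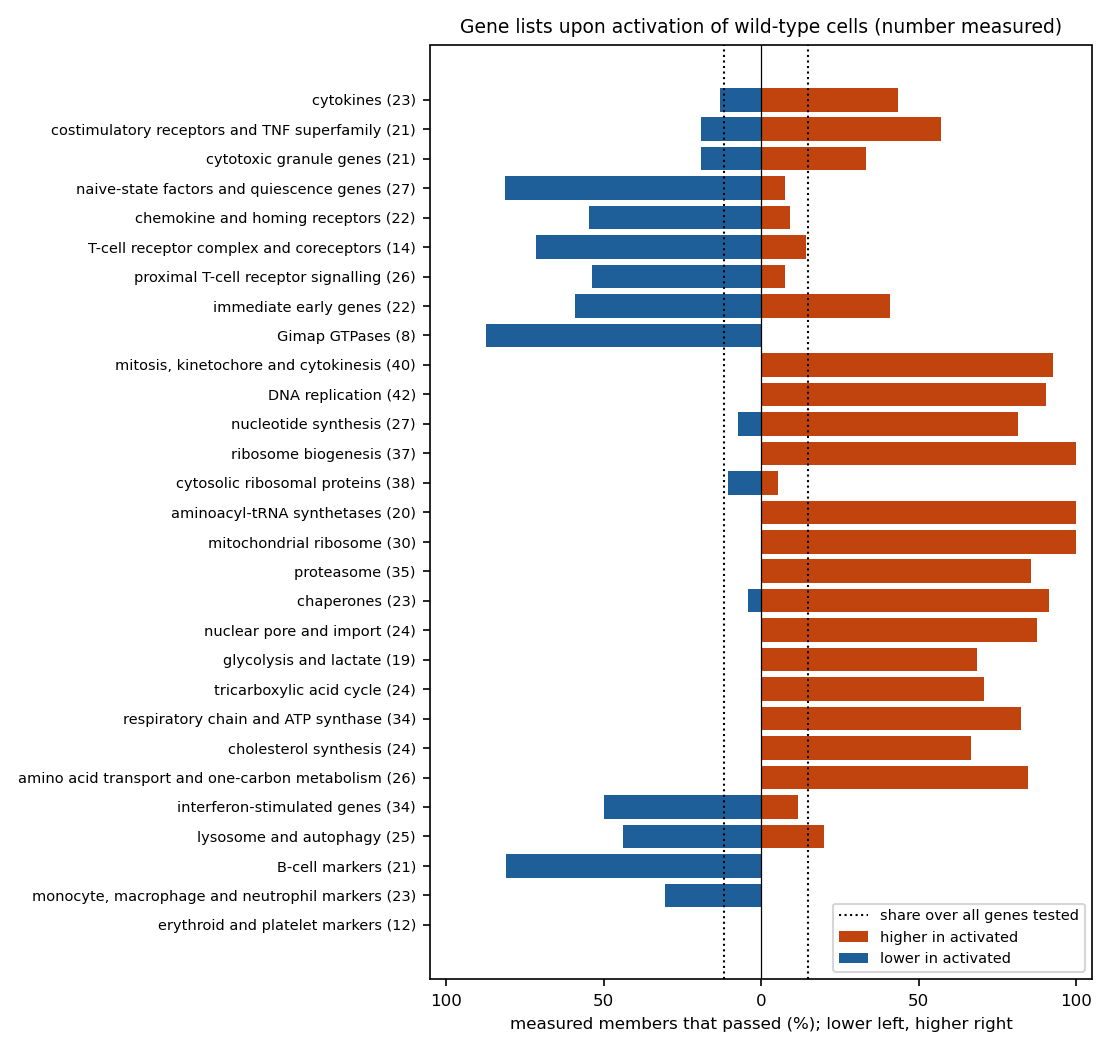
Share of the measured members of 29 gene lists (horizontal axis, percent) that were higher (right) or lower (left) in activated than in naive wild-type cells; dotted lines give the shares over all genes tested, 14.8% higher and 11.9% lower, and the number measured stands beside each name. Lists of growth and division reach to the right, those of the resting state, the receptor complex and B cells to the left, and none of the erythroid and platelet markers passed.

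Markers of cells other than CD8 T cells moved too. Of 21 B-cell markers 17 fell and none rose by limma, and 4 did not pass. Their summed level was 29.6 to 29.9 on the activated and 54.4 to 54.7 on the naive arrays. H2-Aa, an MHC class II chain that mouse T cells are not known to make, read 1.82, 1.75 and 2.43 in activated and 6.41, 6.59 and 6.40 in naive cells, and H2-Ab1 (-4.40 ± 0.19), Cd74 (-3.67 ± 0.14) and H2-Eb1 (-3.49 ± 0.12) fell likewise. Cd79a, which defines B cells, was dim in both states, at 1.01, 0.88 and 0.79 in activated and 1.82, 1.78 and 1.73 in naive cells. It was chosen after its values were seen, and other B-cell markers, such as H2-Aa, were bright on the naive arrays. Jchain, the joining chain of plasma cells, fell (-2.17 ± 0.13). Of the 8 plasma-cell markers 2 fell, 1 rose, which was Irf4, and 5 did not pass. Their summed levels overlapped, at 13.52 to 13.74 on the activated and 13.41 to 13.82 on the naive arrays. Of 23 markers of monocytes, macrophages and neutrophils 7 fell, among them Mpeg1 (-3.20 ± 0.14) and Lyz2 (-1.19 ± 0.12), and the summed level was 20.3 to 21.5 on the activated and 30.1 to 32.0 on the naive arrays. Of 12 dendritic-cell markers 4 fell and 1 rose, with Siglech at 1.00, 1.09 and 1.12 in activated and 1.93, 2.17 and 2.13 in naive cells. Natural killer-cell markers fell in 4 of 12, among them Tyrobp and Gzma, which also stand in the killing lists, whereas Ncr1 (-0.07 ± 0.08) and Klrb1c (-0.14 ± 0.11) did not pass. None of 12 erythroid and platelet markers passed by limma, and 1 of them was lower without naive array 1 or without naive array 2. Of 15 stromal and endothelial markers 3 fell, or 1 without naive array 2, and none rose by limma. Their summed level was 13.99 to 14.84 on the activated and 16.35 to 17.5 on the naive arrays. The part of such cells in the falls of interferon-stimulated, killer-cell and MHC genes was not tested.

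The wild-type response was set against that of cells with deleted Ezh2. The difference, wild type minus knockout, passed for 182 of 20962 genes (0.868%). The rise of Ezh2 itself was larger in wild-type than in knockout cells, by 1.82 ± 0.28. On the knockout arrays Ezh2 read 2.72, 3.59 and 3.78 in activated and 1.95, 2.14 and 2.18 in naive cells, and the sources used here do not place its probe set relative to the deletion. Several effector genes rose by less in wild-type cells: the difference was -1.91 ± 0.15 for Il3, -1.90 ± 0.20 for Il2, -2.44 ± 0.26 for Gzmc, -1.04 ± 0.17 for Gzmb and -1.23 ± 0.18 for Csf2. Lgals3 (-2.07 ± 0.16) and S100a6 (-2.03 ± 0.16) likewise rose by less, and 9 of 18 S100, annexin and galectin genes passed this test. Falls were larger in wild-type cells for Tyrobp (-2.52 ± 0.21), Itgae (-2.43 ± 0.31), Ccl5 (-1.67 ± 0.15) and the receptor gene Cd7 (-1.62 ± 0.17). B-cell markers were among them, with Cd74 at -1.60 ± 0.20 and Jchain at -1.89 ± 0.18. Of the 38 cytosolic ribosomal protein genes, 37 ribosome biogenesis genes, 20 tRNA synthetases, 30 mitochondrial ribosome genes and 42 replication genes none passed this test (limma), at which 2057 of all genes had an unadjusted p under 0.05. A missed threshold does not show that such genes respond alike.

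**Figure D5:**
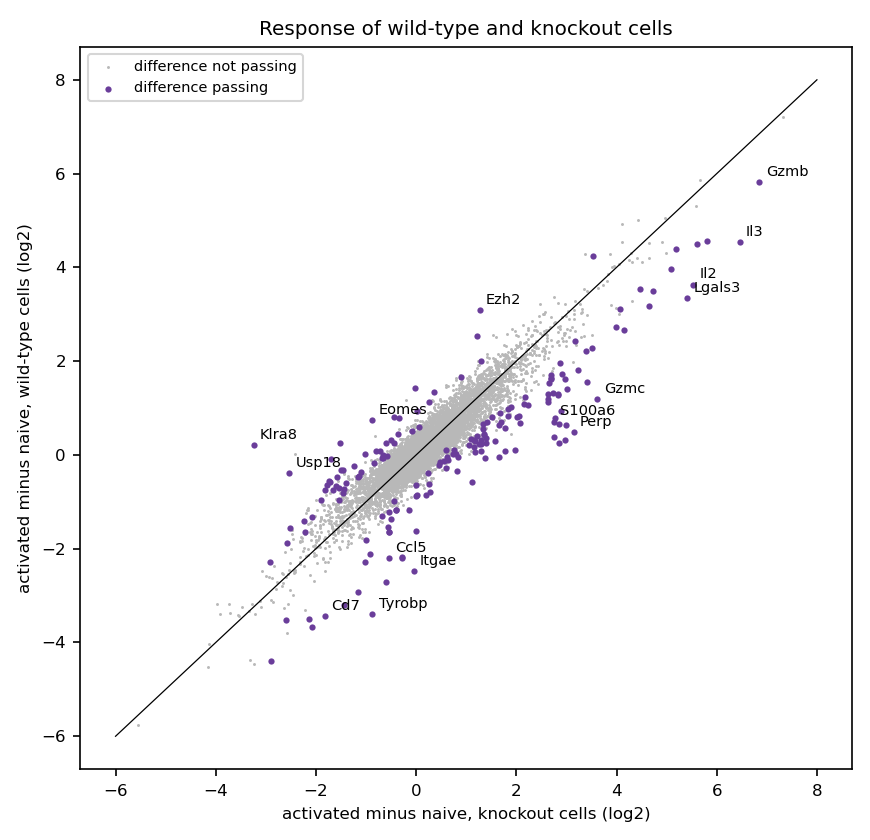
Change upon activation in wild-type cells (vertical axis, log2) against that in knockout cells (horizontal axis, log2) for 20962 genes; purple points are the 182 genes whose difference passed and the line marks equal change. Gzmb, Il3, Il2 and Lgals3 lie below the line, with a smaller rise in wild-type cells, and Ezh2 above it.

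Over all promoters, short elements were unevenly spread between the calls. The ETS site CCGGAAGT was held by 8.24% of promoters of genes that rose, 3.06% of those that fell and 4.35% of all. The GC box GGGCGG stood in 59.9%, 52.5% and 48.9% in the same order, and the E-box CACGTG in 10.3%, 8.53% and 7.49%. In the mitochondrial ribosome list 5 of 25 promoters held the ETS site, and in the ribosome biogenesis list 7 of 36. An annotation in the authors' deposited table records an ENCODE NF-kappaB site near the start for 76.3% of the annotated genes that rose, 49.5% of those that fell and 38.2% of those that did not pass. The cell type and build behind that annotation are not given in the sources used here, and the NF-kappaB motif, searched as GGGA, 2 bases of any kind and TTCC, stood in 1.35% of promoters of genes that rose, 1.87% of those that fell and 1.21% of all. These shares are descriptions without a test.

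Probe sets of a gene did not always agree. Each gene was read from its probe set with the highest mean, and 9714 genes had more than 1. In 227 genes, probe sets passed in opposite directions, 189 of them among the genes that passed. Read as the median of all their probe sets, Cyp51, Ddx58, Jarid2, Psma1, Socs2 and Tap1 did not pass. Without the probe sets that carry a strand or cross-hybridization note, Bmi1, Cycs, Hspa9, Jarid2, Lcp2, Sesn1, Tap1, Txn1 and Xaf1 did not pass and Eed and Csf1 changed sign. That setting left 772 of the 1291 genes in the lists, of which 278 rose and 154 fell, together 56.0%. Over all 14062 genes the share was 21.5%, which is no test of the lists, as these were chosen with earlier results known. Among the 772 genes 16 of 22 replication genes and 17 of 28 mitosis genes rose. So did 11 of 19 proteasome genes and 6 of 15 splicing and export factors. Of 8 B-cell markers 5 fell, and of 4 killer-cell receptors and adaptors none did. The authors' annotation carries an antisense warning or a negative-strand note for the chosen probe set of 1033 genes. Irf4, Psmb5, Psmd13, Rela, Rps27l, Zfp36, H2-K1, Mxd4, Cbx7, Ccnd1 and Tpi1 are among those named. It carries a cross-hybridization note for the chosen probe set of 9753 genes. Ccl3, Il2ra, Gzmb, Ifng, Ccl4, Ccl9, Il3, Cdkn1a, Asns, Mt1 and Klf2 are among these. The chosen probe sets of Lta, Xcl1, Rrm2, Fos and S1pr1 carry neither note. In the table the authors deposited, 4216 probe sets were selected as higher and 3028 as lower. The chosen probe set of 3865 genes was among them, and every one of these genes passed here. They make up 68.9% of the genes that passed. Both selections rest on the same arrays, so this overlap is no independent check.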

How the data were processed

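Expression was measured on 12 arrays, 3 for each of activated and naive wild-type and knockout CD8 cells. The deposited log2 values were made by the authors with a perfect-match-only version of RMA, per the file headers, which name no version. The deposited workbook also holds the authors' ratio of activated over naive means, kept where their p-value was under 0.01 and the change over 1.3-fold. It was read for probe set annotation and for the authors' selection. It holds 36 further columns of per-sample values that were not used. Of 45141 probe sets, 38544 named 1 gene, 860 several and 5633 none. Each gene was read from its probe set with the highest mean, and symbols of 18394 of 20962 genes were updated through RefSeq (GRCm38.p6).

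A limma 3.58.1 fit (R 4.3.3) with 4 group means and no block gave activated minus naive in wild type and the interaction, wild type minus knockout, and adjusted p-values (Benjamini-Hochberg) come from this fit across all genes. A second test asked for more than a 2-fold change. The fit was tested on simulated data. Tables and figures used Python 3.11.15, pandas 2.3.3, numpy 2.4.6 and matplotlib 3.10.9. Same-numbered arrays come from the same animal, by their titles, and their deviations from the group means correlated by 0.042, -0.100, 0.052, 0.126, -0.046 and 0.074 for mice 1 to 6. Named genes were a panel, the 20 largest rises and falls without overlap, and up to 5 members per list and direction. Members named although they did not pass, and Il2rb, Ifit3, Oas1a, Chac1, Psmb8, Gimap5 and Cd79a, were chosen after their values were seen. Some genes are not reported here. The panel, lists and tests were chosen with earlier results of these data known. Alternatives were the block, the wild-type arrays alone, quantile normalization, centring, a filter on dim genes, the choice of probe set, the variance model and leaving out each wild-type array.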

Additional observations from a re-analysis of the deposited data

Results flagged for a closer look

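The activation response of 34 genes named above differed between wild-type and knockout cells by the interaction term of the limma fit (wild type minus knockout, log2 ± SE, adjusted over 20962 genes, n = 3 arrays a group). Among secreted mediators and granule genes the difference was -1.91 ± 0.15 for Il3, -1.90 ± 0.20 for Il2, -1.23 ± 0.18 for Csf2, -1.47 ± 0.17 for Ccl1, -1.25 ± 0.16 for Ccl9, -1.67 ± 0.15 for Ccl5, -2.44 ± 0.26 for Gzmc, -1.04 ± 0.17 for Gzmb and -0.97 ± 0.16 for Serpinb9. Among surface and signalling genes it was -2.52 ± 0.21 for Tyrobp, -2.43 ± 0.31 for Itgae, -1.62 ± 0.17 for Cd7, -1.12 ± 0.16 for Tnfsf11, 0.82 ± 0.11 for Il2rb, 0.90 ± 0.17 for Icos, 0.67 ± 0.13 for Cd8a and 0.58 ± 0.12 for Txk. Among regulators it was 1.82 ± 0.28 for Ezh2, 1.62 ± 0.25 for Eomes, -1.63 ± 0.22 for Id2, -0.92 ± 0.19 for Bhlhe40, -0.68 ± 0.14 for Sesn1 and 0.59 ± 0.11 for Bcl2.

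Among galectin, annexin and S100 genes the difference was -2.07 ± 0.16 for Lgals3, -2.03 ± 0.16 for S100a6 and -1.23 ± 0.18 for Anxa2, and among sterol enzymes -0.97 ± 0.12 for Hmgcs1 and -1.11 ± 0.22 for Idi1. The interferon-stimulated Oas1a had a difference of 1.18 ± 0.22. Markers of other cells were -1.60 ± 0.20 for Cd74, -1.49 ± 0.27 for H2-Ab1, -1.36 ± 0.17 for H2-Eb1, -1.89 ± 0.18 for Jchain and -1.76 ± 0.20 for Mpeg1. A negative value means that the change in wild-type cells lay below that in knockout cells. Of the 34 differences 26 passed in every fit that left out 1 of the 6 wild-type arrays. The others were Bcl2, which passed only without naive array 2, Bhlhe40, which passed only without activated array 1, and Sesn1, which passed only without activated array 2. Cd8a passed only without activated array 3 or naive array 1, and Idi1 only without activated array 1 or naive array 3. Icos failed without activated array 1, activated array 3 or naive array 3, Oas1a without activated array 2 or naive array 1, and Txk without any 1 of the 6. With the mouse as a block 30 of the 34 passed, all but Bhlhe40, Cd8a, Sesn1 and Txk.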

How the results depend on the processing

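Of 4257 comparisons of a named gene's change with an alternative over 17 alternatives, 4181 kept direction and call, 46 lost and 26 gained the call, and 4 reversed. Csf1 changed by 0.123 as the median of its probe sets and by 0.295 without probe sets marked for strand or cross-hybridization, Eed changed by -0.138 without marked probe sets, and Psmb8 changed by -0.021 under quantile normalization. Without marked probe sets, which left 14062 genes, 3030 passed, 1359 of them higher, 315 changed by more than 2-fold (206 higher, 109 lower) and 94 differed between genotypes. Quantile normalization gave 306 genes more than 2-fold lower, and ordinary variances left 52 genes that differed between genotypes. Leaving out 1 wild-type array gave 4639 to 5025 genes, 2737 to 2974 higher and 1902 to 2071 lower, 641 to 714 beyond 2-fold and 122 to 143 differing between genotypes. With the mouse number as a block 5534 genes passed, 3135 higher and 2399 lower, 767 of them beyond 2-fold and 179 differing between genotypes. Beside the calls named for Gimap1 and the 4 genotype differences, the block changed no other call of a named gene in the fit to all 12 arrays. Of 2210 counts of higher or lower genes in a list under an alternative, 217 moved by over 1.5 times, 74 of them without marked probe sets and 17 under quantile normalization. Among lists given with no falls, 1 replication gene was lower with ordinary variances or without marked probe sets, 2 proteasome genes under quantile normalization and 2 amino acid supply genes with the probe set of largest variance. Monocyte, macrophage and neutrophil markers fell in 11 in place of 7 with the median of the probe sets, and quantile normalization left 3 rises in the BCL2 family in place of 5. Array medians lay at 0.906 to 0.976 and array minima at -0.076 to 0.091 on the log2 scale, and no measure of background was available to set dim values against.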
